A study of Homo sapiens with 9 samples.

Results

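The large histone gene cluster on the short arm of chromosome 6 was taken as 2 stretches of the hg19 genome, chr6:26000001-26300000 (the first histone span, 300 kb) and chr6:27750001-27900000 (the second histone span, 150 kb). The spans were fixed by position and not by any measured value. Cut into 10 kb windows, they gave 45 of the 303641 windows of the autosomes and the X chromosome, 30 in the first span and 15 in the second. All 45 had enough reads to be used, against 283279 of all windows. The flanks were the 1 Mb before the first span, the 1450 kb between both spans and the 1 Mb after the second span.

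The study measured when DNA is copied in S phase. Unsynchronised RPE1 cells, a telomerase-immortalised retinal pigment epithelial line, and HCT116 cells, a colorectal carcinoma line, took up the thymidine analogue EdU, and the cells were sorted into early, mid and late S fractions. New DNA was captured with streptavidin and read as 50-base single-end reads. RPE1 was done as 2 sets of 3 libraries and HCT116 as 1 set of 3, with no treatment and no edited gene in either line. The labels number the HCT116 mid and late S libraries as replicate 2 and leave the early S library unnumbered, and all 3 are named for 1 table, so taking them as 1 set is an assumption on which every HCT116 share rests. RPE1 was done in duplicate, and separate cultures are not stated, so the SD between its sets and every p-value cover the spread between those sets only, which may be technical.

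The count tables carry no column names, and the 3 libraries of a set are called A, B and C by their place in the table. A letter is not a fraction, and the same letter in different tables need not be the same fraction. Library totals ran from 6170299 to 22930078 reads. After the libraries of a set were scaled to equal totals, the share of each in a window was taken; an even split would be 33.3%. As points of reference, library A held 46.8 ± 2.19% (SD, n = 2) of chromosome 19, a gene-dense chromosome, in RPE1 and 43.6% in HCT116, while library C held 41.0 ± 3.19% of chromosome 18, a gene-poor one, in RPE1 and 39.9% in HCT116.

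Most genes of this cluster encode replication-dependent histones. These are the core histones H2A, H2B, H3 and H4, which form the nucleosome, and the linker histone H1, which binds the DNA between nucleosomes. Cells make them mainly in S phase to package newly copied DNA, and their messages mostly end in a stem-loop rather than a poly(A) tail. Gene-dense and active DNA is generally copied early in S phase, and the timing of a domain can differ between cell types.

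RefSeq (GRCh38.p14) lists 55 protein-coding histone genes here, which fall into 4 groups of neighbours: 6 encode H1, 12 encode H2A, 15 encode H2B, 10 encode H3 and 12 encode H4. That table is of another genome build than the read counts, so it gives names and order only and no gene was placed in a window. The group of the first span holds 32 genes, from H1-1 to H4C8: 5 for H1 (H1-1, H1-2, H1-3, H1-4 and H1-6), 4 for H2A, 8 for H2B, 7 for H3 and 8 for H4. HFE, the haemochromatosis gene, lies inside it, and its neighbours are TRIM38 on the side of the first genes and BTN3A2, a butyrophilin, at the other end. The group of the second span holds 16 genes, from H2BC13 to H2BC17: H1-5, 5 for H2A, 4 for H2B, 3 for H3 and 3 for H4. ZNF184, a zinc finger gene, precedes it and OR2B2, an olfactory receptor gene, follows it. The 7 remaining genes lie outside both spans' groups: H2AC1 and H2BC1 stand between the phosphate transporter genes SLC17A1 and SLC17A4, and 5 genes from H2BC11 to H2AC12 stand between ZNF322 and PRSS16. By order, H2AC1 and H2BC1 come before the group of the first span, and the 5 lie between the groups of both spans. The flanks may thus hold histone genes too, and histone windows here means windows of the histone spans only. In the order of the table, 98 tRNA genes lie between the group of the first span and that of the second. An H2A gene and an H2B gene stand next to each other, reading in opposite directions, in 9 pairs, 7 of them in the groups of the spans.

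The promoters of the genes at the ends of each span's group are printed as examples, and they vary in the marked letters. Each line gives the 120 bases before the annotated start, 5′ to 3′ on the gene's strand (RefSeq, GRCh38.p14); capitals mark TATAAA, the TATA box letters, and CCAAT or its reverse ATTGG, the letters bound by NF-Y. The positions are H1-1 chr6:26017788-26017907 (minus strand), H4C8 chr6:26285535-26285654 (minus), H2BC13 chr6:27807930-27808049 (minus) and H2BC17 chr6:27893305-27893424 (plus).
H1-1: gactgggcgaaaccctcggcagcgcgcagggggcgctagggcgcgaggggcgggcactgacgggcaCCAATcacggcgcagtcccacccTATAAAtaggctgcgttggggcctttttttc
H4C8: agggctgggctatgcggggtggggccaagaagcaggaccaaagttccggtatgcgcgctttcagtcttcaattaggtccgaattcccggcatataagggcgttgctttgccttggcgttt
H2BC13: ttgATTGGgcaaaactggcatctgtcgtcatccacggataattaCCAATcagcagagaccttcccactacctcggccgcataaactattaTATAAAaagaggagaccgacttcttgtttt
H2BC17: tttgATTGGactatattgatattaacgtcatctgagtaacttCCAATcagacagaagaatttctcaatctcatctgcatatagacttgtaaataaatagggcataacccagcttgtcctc
H1-1 has 1 TATAAA and 1 CCAAT, H2BC13 has 1 TATAAA and 2 CCAAT on either strand, H2BC17 has 2 CCAAT and no TATAAA, and H4C8 has neither. Promoter windows of 300 bases, from 250 before to 50 after the start, were found for 50 of the 55 genes. TATAAA or its reverse TTTATA stood in 33 of the 50, or 66%, beside 12.0% of 27305 genes with a window of that length. CCAAT or ATTGG stood in 43 of the 50, or 86%, beside 35.7% of all. By class, CCAAT was in 6 of 6 H1, 11 of 11 H2A, 15 of 15 H2B and 8 of 8 H3 windows and in 3 of 10 H4 windows. TATAAA and its reverse can share letters, a window with any match was counted once, and a match is a description of the window and not a binding site. The 9 pairs of H2A and H2B genes stand 193 to 247 bases apart, so the windows of a pair share bases. A single match can thus count for both genes, and the 50 windows are not 50 separate promoters.

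Both RPE1 sets carried the most scaled reads of both histone spans in library C, and HCT116 carried the most in library B. In the first span the shares of libraries A, B and C were 22.8, 24.7 and 52.4% in RPE1 set 1, 19.2, 38.2 and 42.5% in RPE1 set 2, and 27.1, 50.8 and 22.1% in HCT116. The 95% counting intervals of the C share were 50.8 to 54.1%, 41.2 to 43.8% and 20.4 to 23.7%, so the RPE1 sets differed from each other by more than counting error and both lay far above HCT116. They rest on 4349, 5932 and 3444 reads. Like all intervals here, they are computed from the counts of a single set, so they cover counting error only and leave out any spread between sets. Reads carried no molecular identifiers.

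In the second span the shares of A, B and C were 21.2, 23.3 and 55.6% in RPE1 set 1, 18.7, 33.1 and 48.1% in RPE1 set 2, and 26.6, 55.6 and 17.8% in HCT116. The C intervals were 53.4 to 57.7%, 46.3 to 49.9% and 15.7 to 19.9%, from 2543, 3060 and 1888 reads. The RPE1 mean C share was 47.5 ± 7.02% (SD, n = 2) in the first span and 51.9 ± 5.26% in the second, beside 32.4 ± 0.23% over all autosomes. The gap to HCT116, 25.4 and 34.1 percentage points, was over 3 times the SD between RPE1 sets in each span. HCT116 had a single set, so its own spread is unknown.

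The flanks differed in the same direction by less. RPE1 held 35.7 ± 4.06% in C in the span before, 37.3 ± 3.64% between and 27.6 ± 0.75% after, and HCT116 held 17.5, 17.5 and 17.2%. Library B of HCT116 held 51.3, 49.7 and 48.9% there, close to its 50.8% in the first histone span. HCT116 thus kept B at 48.9 to 55.6% in all 5 spans, and the difference in C between histone spans and flanks lay mostly in RPE1. Each span is a single stretch of DNA, so no test between spans was made.

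**Figure D1:**
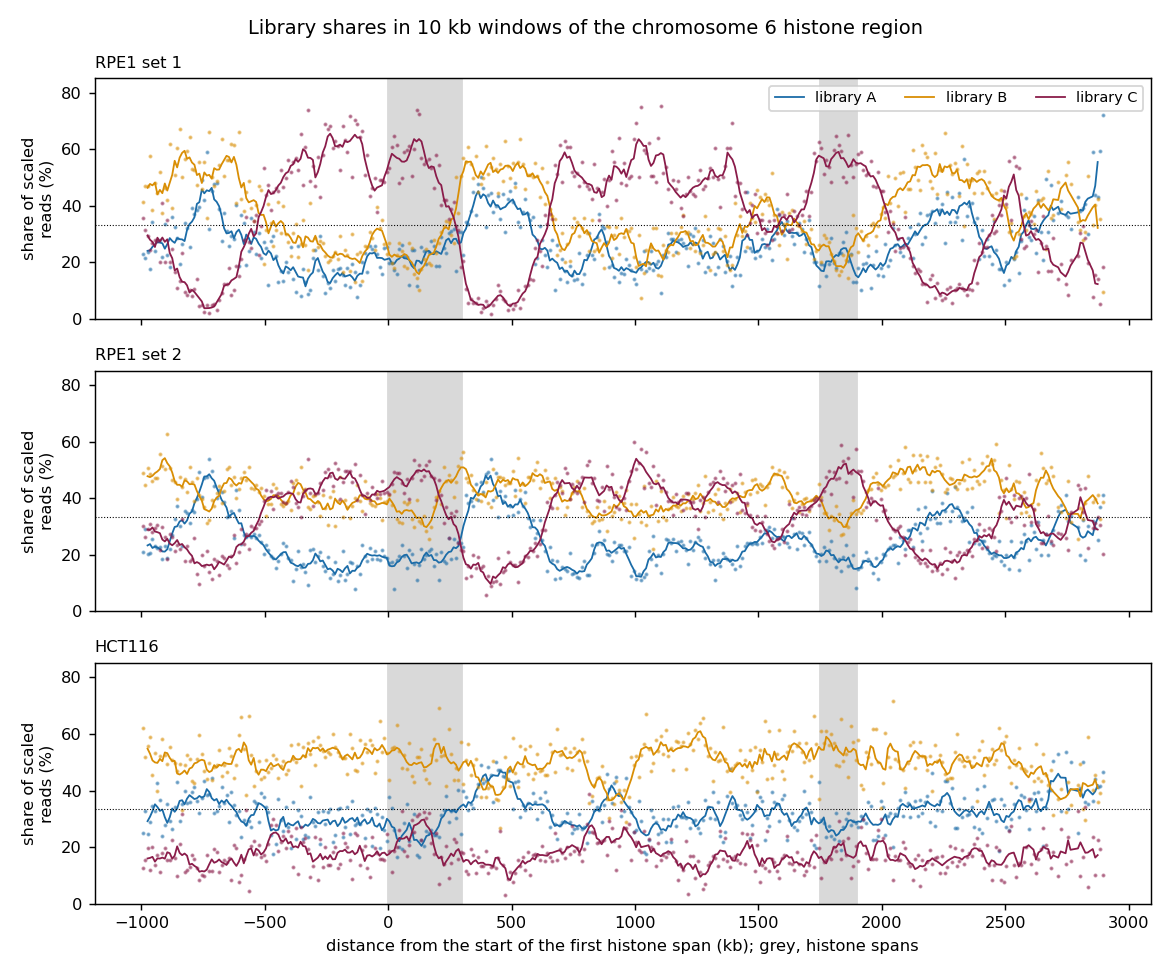
Share of scaled reads (%) of libraries A, B and C in 10 kb windows (points) and their 5-window means (lines) against distance from the start of the first histone span in kb, for each set; grey bands are the histone spans and the dotted line is an even split of 33.3%. In both RPE1 sets library C rises and falls along the region and is high in both bands, and in HCT116 library B stays on top across both bands.

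In the histone spans the RPE1 sets agreed in which library led and less in the level of B. In the span before, C led in set 1 (38.6%, B 37.2%) and B in set 2 (42.1%, C 32.8%). In the span between, C led in set 1 (39.9%, B 34.0%) and B in set 2 (40.6%, C 34.8%). In the span after, B led in both sets. The B share of the first span was 13.5 percentage points higher in set 2 than in set 1. Over the 266524 autosomal stretches of 300 kb, taken every 10 kb, that difference averaged -1.30 with an SD over stretches of 9.19, and 0.257% of stretches reached the value of the histone span. In the second span the difference was 9.87 points, which 12.4% of the 266327 stretches of 150 kb reached. The RPE1 mean of B in the first span therefore covers a gap, with set 2 above set 1, that few autosomal stretches reach in that direction.

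Counted window by window, library C led 27 of 30 windows of the first span in RPE1 set 1 and 21 in set 2, and the 21 were led by C in both. In the second span it led 15 of 15 and 14 of 15, and 14 in both. Together C led in both RPE1 sets in 35 of 45 windows, or 77.8%, where 33.7% of autosomal windows were so led. In HCT116 library B led all 45, where 32.3% of autosomal windows were led by B. The combination, C in both RPE1 sets and B in HCT116, was found in 35 of 45 windows and in 7.88% of autosomal windows. Library C led in all 3 sets in 25.1% of autosomal windows and in none of the 45. In the flanks the combination held in 36 of 100 windows before, 52 of 145 between and 5 of 95 after. Where a lead of at least 50% of the reads was asked for, C led both RPE1 sets in 17.8% and B led HCT116 in 66.7% of the histone windows. No autosomal share is given under that rule, so whether these values are high or low for the genome cannot be said.

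Among all autosomal stretches of their length, the histone spans stood apart less for RPE1 than for HCT116. In 29.4% of the 300 kb stretches the C share was at least that of the first span in both RPE1 sets, while 3.68% had a B share in HCT116 of at least 50.8%, and 0.568% met both conditions. Over 150 kb stretches the values for the second span were 25.7, 0.400 and 0.0706%. The median B share of all stretches in HCT116 was 33.3% at 300 kb and 33.0% at 150 kb, and the highest were 60.4 and 62.3%. The stretches with as much C in both RPE1 sets usually kept it in HCT116: their median C share there was 56.8% at 300 kb and 57.9% at 150 kb, with B at 24.8 and 23.9%. Only 4.98 and 1.70% of them had as little C in HCT116 as the histone spans. Neighbouring stretches overlap, so these shares are a description and not a test.

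**Figure D2:**
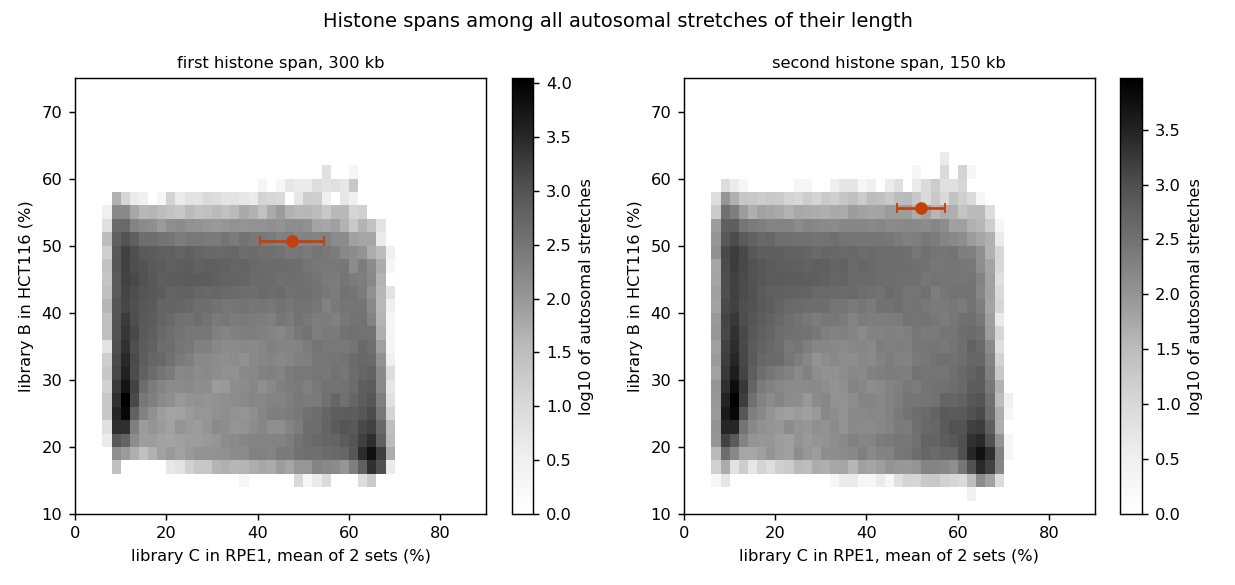
Library B share in HCT116 (%) against the mean library C share of the 2 RPE1 sets (%) for all autosomal stretches of 300 kb (left) and 150 kb (right), shaded by the log10 number of stretches in each cell of 2 by 2 percentage points. The point is the histone span with the SD between RPE1 sets (n = 2); it lies near the top of the shaded area, away from the dense corner at high RPE1 C and low HCT116 B.

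To compare the lines without naming a fraction, each set's 3 libraries were reduced to a leading axis: the first principal component of the log2 scaled reads (pseudocount 1), centred within windows and given in SDs of the autosomal windows. Its sign puts library C at the positive end in each set. The weights differed by set: library B weighed -0.287 in RPE1 set 1, 0.096 in set 2 and -0.208 in HCT116. A difference between lines on this axis therefore also carries the difference in weights. The component held 92.6% of the variance in RPE1 set 1, 80.2% in set 2 and 80.4% in HCT116. Over autosomal windows it correlated at 0.952 between the RPE1 sets and at 0.731 and 0.738 between HCT116 and each of them. These windows are neighbours and share libraries, so the correlations are descriptions.

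On this axis the first span averaged 0.76 and 0.69 in the RPE1 sets (mean 0.72 ± 0.053, SD, n = 2), and HCT116 averaged -0.29. The second span averaged 0.89 and 0.81 (0.85 ± 0.057) and -0.51. The differences, HCT116 minus RPE1, were -1.01 and -1.36. In place among autosomal windows, the first span's mean lay above 66.9 and 66.1% of them in the RPE1 sets and above 48.9% in HCT116, and the second span's above 71.7, 70.4 and 40.5%. In RPE1 both spans were thus moderately towards the C end rather than at its limit, and in HCT116 they were near or below the middle. The span before went from 0.31 ± 0.057 in RPE1 to -0.59 in HCT116, the span between from 0.33 ± 0.069 to -0.64 and the span after from 0.08 ± 0.005 to -0.65.

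In every one of the 45 windows HCT116 lay below both RPE1 sets, as it did in 103882 of 268234 autosomal windows. Across windows the groups overlapped: HCT116 ran from -1.29 through a median of -0.30 to 0.50 in the first span, RPE1 set 1 from -0.10 through 0.83 to 1.36 and RPE1 set 2 from -0.03 through 0.68 to 1.57. In the second span HCT116 ran from -1.20 through -0.52 to 0.21, set 1 from 0.66 through 0.93 to 1.08 and set 2 from 0.41 through 0.79 to 1.66, with no overlap between the lines.

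**Figure D3:**
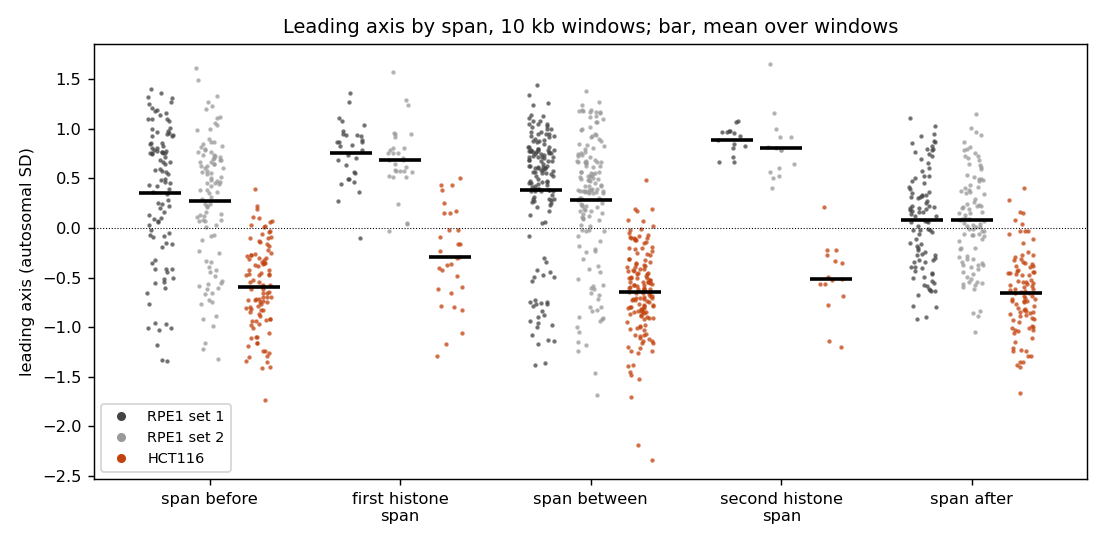
Leading axis (autosomal SD) of every 10 kb window in the 5 spans for RPE1 set 1, RPE1 set 2 and HCT116; points are windows, spread sideways for view, and bars are means over windows. HCT116 means run from -0.65 to -0.29, below the RPE1 means of the same span, and in the second histone span the windows of both lines do not overlap.

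limma was fitted to the axis over all 283279 windows, with 2 RPE1 values against 1 HCT116 value, HCT116 being assumed to vary as RPE1 does. At a Benjamini-Hochberg adjusted p under 0.05, HCT116 was lower in 39 of 45 histone windows, where 18.1% of all windows were called lower, and higher in none, where 15% were called higher. The first span had 24 of 30 and the second 15 of 15. The median difference over the 45 windows was -1.11, and over autosomal windows 0.07. The flanks had 64 of 100 before, 109 of 145 between and 45 of 95 after, with median differences of -0.89, -1.02 and -0.74, and no window called higher. The lower axis in HCT116 was therefore a feature of a wider region that holds the histone spans. By the stricter rule of at least 1 autosomal SD from both RPE1 sets, 25 of 45 histone windows were lower, 13 and 12 by span, where 7.85% of all windows were, and none was higher, where 3.84% of all windows were.

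Of the 39 histone windows that passed, 31 lay in 3 runs of at least 5 windows, given here in hg19, and the other 8, all in the first span between 26060001 and 26160000, lay in shorter runs. The first, chr6:25550001-26040000, began 450 kb before the first span and took in its first 4 windows; over its 49 windows RPE1 averaged 0.88 ± 0.087 (SD, n = 2) and HCT116 averaged -0.48. The run chr6:26170001-26290000 held 12 histone windows at 0.56 ± 0.017 and -0.60. The run chr6:27620001-28080000 held all 15 windows of the second span among its 46, at 0.64 ± 0.076 and -0.55. Between the spans lay 6 further runs, from chr6:26630001-26810000 (18 windows, difference -1.27), chr6:26820001-26940000 (12, -1.02), chr6:26950001-27140000 (19, -1.22) and chr6:27150001-27450000 (30, -1.45) to the shorter chr6:27480001-27530000 (5, -1.21) and chr6:27540001-27610000 (7, -1.04). The last, chr6:28530001-28590000 (6 windows, -1.32), lay after the second span. None of these runs began or ended at an edge of a histone span; the nearest end, at 26290000, was 10 kb short of one.

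**Figure D4:**
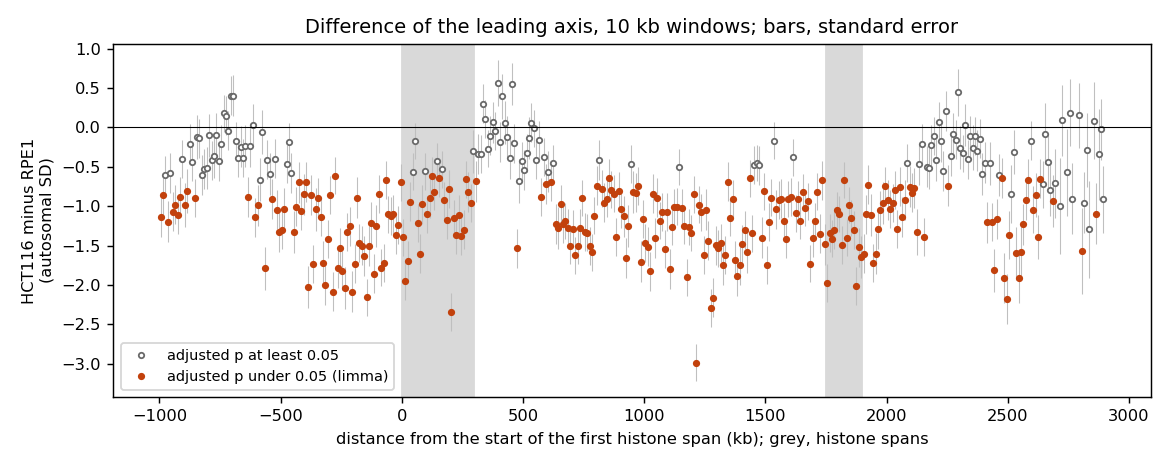
Difference of the leading axis, HCT116 minus the mean of 2 RPE1 sets (autosomal SD), with its limma standard error in 10 kb windows against distance from the start of the first histone span in kb; filled points have an adjusted p under 0.05 and grey bands are the histone spans. Filled points extend beyond both bands, and open points gather about 300 to 600 kb after the start, past the edge of the first band. Open points also gather well before the first band and are common after the second: 64 of 100 windows of the span before and 45 of 95 of the span after are filled.

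Within the first span the RPE1 pattern was not even. By 100 kb, the C share in RPE1 set 1 was 56.2, then 58.5, then 39.1%, and in set 2 it was 45.3, 48.8 and 33.7%. HCT116 showed 22.2, 26.8 and 16.1%, so its C share was also highest in the middle 100 kb, at a lower level. The highest RPE1 axis value was in chr6:26020001-26030000, where C held 64.7 and 49.3% of RPE1 and 18.7% of HCT116 reads. The axis there was 1.33 ± 0.346 (SD, n = 2) against -0.37. The highest HCT116 value was in chr6:26120001-26130000, with C at 72.4 and 51.8% in RPE1 and 31.7% in HCT116. The difference there was -0.61. The lowest HCT116 value was in chr6:26200001-26210000, where B held 69.3% of HCT116 reads and 27.0 and 42.4% of RPE1 reads. The difference there was -2.35, and library C of HCT116 held only 4 reads. These windows were picked as extremes of the axis, so no p-value is given for them.

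The 6 windows of the first span that did not pass had differences from -0.56 to -0.17, the smallest in chr6:26050001-26060000. At its ends, the first window, chr6:26000001-26010000, had C at 53.4 and 41.5% in RPE1 and 18.6% in HCT116, like the window just outside it at 51.8, 42.2 and 24.6%. The last window, chr6:26290001-26300000, had the lowest RPE1 axis value of the span (-0.06 ± 0.049, SD, n = 2), with C at 18.5 and 21.7% in RPE1 and 18.2% in HCT116. There B led in all 3 sets with 50.6, 54.1 and 57.1%, and the window just outside held C at 20.5 and 21.3% in RPE1. The histone span thus opened inside a C-led stretch of RPE1 and closed outside it: C led no window from 26270001 to the end of the span in either set.

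The steepest fall of the C share in RPE1 over the whole region from 25 Mb to 28.9 Mb was 10 kb before that end. Between the 50 kb before and the 50 kb after position 26290000, the C share of RPE1 set 1 fell from 36.3 to 11.5% and that of set 2 from 30.9 to 16.4%, a change of -19.6 ± 7.34 percentage points (SD, n = 2). HCT116 went from 16.8 to 15.4%. Around and beyond it, the stretch chr6:26270001-26670000, 40 windows whose first 3 are histone windows, was led by C in neither RPE1 set, with C at 13.8 and 19.6%. The C share rose again at 26650000, by 18.3 ± 6.28 points in RPE1 and by 1.21 points in HCT116. These positions were picked by the size of the step and carry no test.

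Within the histone spans and their flanks, the longest runs of windows led by C in both RPE1 sets were those that took in histone windows. One, chr6:25960001-26190000, had 23 windows of which 19 are histone windows, and held C at 56.1 and 46.8% in RPE1 and 23.8% in HCT116. The other, chr6:27760001-27930000, had 17 windows of which 14 are histone windows, at 55.4, 48.7 and 19.2%. The next longest in the flanks had 10 windows, chr6:25700001-25800000, at 58.6, 46.5 and 17.2%. Such runs were not counted in the rest of the genome, so whether these lengths are unusual was not tested. In HCT116, B led without a break through chr6:25290001-26360000, 107 windows that include the whole first span, and through chr6:27750001-27990000, 24 windows that include the whole second span.

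The second span was more even. RPE1 set 1 held C at 48.4% in its lowest window, a median of 54.6% and 64.9% in its highest. Set 2 held 39.2, 47.5 and 58.8%, and HCT116 held 9.12, 16.4 and 29.1%. The SD over its windows in set 1 was 5.60 points where counting error alone gives 4.26, against 12.4 and 4.47 in the first span. In HCT116 the B share varied over windows with an SD of 5.93 points where counting gives 4.75, so little of the variation among these windows can be read at a median of 135 reads a window. Its first window, chr6:27750001-27760000, had the lowest HCT116 axis value (-1.20, RPE1 0.77 ± 0.290, SD, n = 2), with 7 HCT116 reads in C. Its last, chr6:27890001-27900000, had the highest RPE1 value (1.31 ± 0.489) and -0.33 in HCT116. The lowest RPE1 value was 0.54 ± 0.185 in chr6:27790001-27800000, and the highest HCT116 value was 0.21 in chr6:27820001-27830000, where the difference was -0.67. As extremes of the axis, these windows too are given without a p-value. Just outside, the C share was 62.5, 37.5 and 19.8% before the span and 58.1, 49.5 and 15.0% after it (RPE1 set 1, RPE1 set 2, HCT116), so neither edge of this span was an edge in RPE1.

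Within a span the fine shape was shared between RPE1 sets more than between lines. Over the 30 windows of the first span the axis correlated at 0.760 between the RPE1 sets and at 0.317 between the RPE1 mean and HCT116. Over the 15 of the second span the values were 0.502 and 0.288. Windows of a span share libraries and neighbours, and at this depth weak correlations carry no finding.

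Summed over the 3 libraries, both spans held more reads than the autosomal median window of their set. The first span stood at 1.17 ± 0.079 times the median in RPE1 (SD, n = 2) and 1.28 times in HCT116, with a counting interval of 1.23 to 1.32. The second stood at 1.29 ± 0.20 and 1.40 (1.34 to 1.46), the span between at 1.17 ± 0.028 and 1.30, the span before at 0.96 ± 0.046 and 1.03, and the span after at 0.74 ± 0.113 and 0.89. With the libraries of a set weighted equally, the values were 1.15 in RPE1 and 1.16 in HCT116 for the first span and 1.26 and 1.24 for the second, so the order of the lines in the second span turned with the weighting. The higher counts were thus not particular to the histone spans, and copy number, mapping and the sorted fractions cannot be told apart in a summed count. Within RPE1 set 1, library C alone stood at 2.99 and 3.65 times its own autosomal median window in the first and second span, in set 2 at 1.63 and 1.91, and library B of HCT116 stood at 1.74 and 2.04. The span between gave 2.29 for C in set 1, 1.39 in set 2 and 1.73 for B in HCT116, the last almost the value of the first span. The span before gave 1.83, 1.10 and 1.41. In RPE1 set 1 the C share of autosomal windows had a median of 23.6%, beside 32.2% over the autosomes together. The median window is thus a low base for C in that set. How many autosomal windows reach these ratios was not counted.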

How the data were processed

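EdU-labelled DNA of 9 libraries, 3 from each of 2 RPE1 sets and 1 HCT116 set, was read as 50-base single-end reads per the labels' protocols. The authors deposited raw read counts in 3137207 bins of 1 kb for each set, with no column names. The build hg19 and the tools bedtools 2.25, SAMtools 1.2 and Bowtie2 are named, per the submitters' processing notes, without their roles; mapping settings and how duplicates were removed are not given in the sources used here. Reads in near-identical histone genes may be lost or shared between copies by mapping, which was not tested.

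Bins were summed to 10 kb windows, which had to hold reads in 5 or more bins and at least 20 reads per set. Library totals of 6170299 to 22930078 reads over all rows set the counting error, and libraries of a set were scaled to equal totals over the autosomes and X. Shares, counting intervals (95%, multinomial delta method for shares and Poisson for depth) and the leading axis (pseudocount 1) were computed with Python 3.11.15, numpy 2.4.6, pandas 2.3.3 and scipy 1.17.1. The lines were compared with limma 3.58.1 (R 4.3.3; eBayes with trend, Benjamini-Hochberg over 283279 windows), tested on simulated data first. No count model was used, since no count column is tied to a fraction. Windows named are the ends of each span, the highest and lowest axis value of each span, and called runs of at least 5 windows; steps, sub-spans, C-led runs and the windows next to each edge were added after their values were seen. Genes named are the ends and neighbours of each group, the H1 genes and HFE. Members and lists were chosen with earlier results of these data known. Gene names, order and promoters came from RefSeq (GRCh38.p14), not the build of the counts; promoters matched 50 of 55 genes by symbol, 1 window for each gene.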

Additional observations from a re-analysis of the deposited data

Results flagged for a closer look

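In the first histone span the C share minus the A share was -5.05 percentage points in HCT116, opposite in sign to both RPE1 sets, which stood at 29.6 and 23.3. In the second histone span it was -8.80 in HCT116, against 34.4 and 29.4 in the RPE1 sets. The opposite sign flagged both values; that difference of sign was not itself tested, and a letter in the HCT116 table need not be the fraction it is in the RPE1 tables. The same sign change was seen in the span before, with -13.8 in HCT116 against 14.3 and 7.75, and in the span between, with -15.3 against 13.8 and 10.1. With 1 HCT116 set, the line and the set cannot be told apart.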

How the results depend on the processing

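Of 116 values recomputed under the alternatives, 101 were classed as the same, 13 as moved, 2 as weaker and none as reversed. Shares, percentages and depths cannot change sign, so their class says nothing of direction. The order of the lines in the depth of the second span did turn, as given below. Values classed as the same could differ in size: the RPE1 C share of the first span was 47.5% with both sets and 42.5% without set 1. With totals over chromosome 6 alone, the B share of HCT116 was 46.9 and 51.7% in the first and second span. With libraries thinned to the smallest total, the RPE1 axis of the first span was 0.67. With the axis taken as C over A alone, HCT116 stood at -0.12 and -0.30 and the differences at -0.81 and -1.13. By the rule of 1 SD from both RPE1 sets, 55.6% of histone windows and 7.85% of all windows were lower in HCT116. Depth in HCT116 was 1.16 and 1.24 with libraries weighted equally (RPE1 1.15 and 1.26), and 1.35 and 1.50 as a median over windows (RPE1 1.22 and 1.28). Where the leading library had to hold at least 50% of the reads, C led both RPE1 sets in 17.8% and B led HCT116 in 66.7% of histone windows. These 2 values have no autosomal share beside them. The causes were not tested. Leaving out 1 RPE1 set gave a C share of 42.5 to 52.4% in the first span and 48.1 to 55.6% in the second, an axis of 0.69 to 0.76 and 0.81 to 0.89, and differences of -1.05 to -0.98 and -1.40 to -1.32; a limma call could not be made with 1 set a line. No paired analysis was possible because the lines share only the number 2, on 1 set each, and no count column is tied to a numbered library. At a median of 122 to 202 reads a window, single windows are uncertain by 2 to 5 percentage points from counting alone.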
